A study of Mus musculus with 6 samples.

Results

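Respiratory chain genes were taken as all probe sets that carry exactly 1 gene symbol and whose symbol names a nuclear-encoded subunit of complex I (Nduf), II (Sdh), III (Uqcr), IV (Cox) or V (Atp5). The rule took 75 probe sets of 61 genes, out of 10366 genes with a single-symbol probe set, and each gene was represented by its probe set with the highest mean. Complex I held 30 of the genes, complex II 2, complex III 7, complex IV 9 and complex V 13. Expression was measured on Affymetrix whole-transcript gene arrays in LKS-Slam cells, which are lineage-negative, Kit-positive, Sca-1-positive mouse bone marrow cells sorted further on SLAM antigens and highly enriched for hematopoietic stem cells. The arrays labelled Zeb2-KO came from Zeb2Δ/ΔMx1-Cre mice, in which the interferon-inducible Mx1-Cre recombinase removes floxed Zeb2, a zinc-finger repressor, in blood-forming and other interferon-responsive cells. The WT arrays came from C57Bl/6 WT mice, labelled with no Mx1-Cre, so the groups differ by their labels in Mx1-Cre as well as in Zeb2. Both groups were given pIC, an inducer of interferon, at 6 weeks of age, and marrow was taken 8 weeks later, at 14 weeks. There were 3 arrays in each group, each from its own marrow sample, and the comparison asks which transcripts differ after induced loss of Zeb2.

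The respiratory chain sits in the inner mitochondrial membrane. Complexes I and II pass electrons from NADH and succinate to ubiquinone, complex III passes them to cytochrome c, complex IV passes them to oxygen, and complex V, the ATP synthase, uses the proton gradient that complexes I, III and IV build. Blood stem cells are known for relying little on respiration at rest and for raising it when they divide or differentiate.

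Zeb2 itself lay higher, not lower, in the arrays that carry the Zeb2-KO label. Its log2 intensity was 7.79, 9.13 and 8.96 there, against 6.58, 7.51 and 7.34 in WT, a difference of 1.48 (SE 0.40, limma adjusted p = 0.581). The deleted exons are not named in the labels. A probe set outside them checks nothing, and all directions given here go by the labels of the arrays. Among markers of the sorting gate, Kit stood at 10.18 ± 0.05 in Zeb2-KO and 9.65 ± 0.57 in WT arrays (SD, n = 3 each). Slamf1 stood at 8.54 ± 0.41 in Zeb2-KO and 7.24 ± 1.28 in WT arrays. Of the 9 measured gate and stem cell markers 6 lay lower, with a median of -0.29 (4 of 9 lower and a median of 0.0027 with array weights). The lower ones were led by Cd48 (-1.02) and Cd34 (-0.69), and Flt3 (0.69) lay higher besides Kit and Slamf1. The list was not split into markers that a gate selects for or against, so its count and median give no direction of stem cell identity. The means over 9 gate and stem cell markers ran from 7.43 to 7.86 in Zeb2-KO arrays and from 7.45 to 7.97 in WT arrays. No marker of another blood cell passed the threshold (lowest limma adjusted p = 0.333), and the lists are given by counts only. Of the 5 measured erythroid markers 5 lay higher, with list means per array of 7.42 to 8.22 in Zeb2-KO and 7.02 to 7.14 in WT. Of 9 megakaryocyte and platelet markers 8 lay higher, with 7.74 to 8.51 in Zeb2-KO and 6.53 to 7.11 in WT. All 11 measured B cell markers lay lower, at 6.33 to 7.02 in Zeb2-KO and 7.05 to 7.87 in WT (9 of 11 when the spread of each array entered the fit). Of 10 monocyte and dendritic cell markers 9 lay lower, at 7.24 to 7.75 in Zeb2-KO and 7.71 to 8.09 in WT (7 of 10 in that fit). Granulocyte markers had list means of 5.82 to 6.62 in Zeb2-KO and 5.75 to 5.92 in WT (3 of 5 higher), and T and NK cell markers 5.22 to 5.72 in Zeb2-KO and 5.23 to 5.58 in WT (2 of 5 higher). All 20 measured cell cycle genes lay higher, with list means of 7.88 to 8.54 in Zeb2-KO and 7.07 to 8.00 in WT (19 of 20 with quantile normalization and 16 of 20 with the spread in the fit). Array intensities have no value of 0, so no marker can be called absent. Y-linked genes such as Eif2s3y were raised in replicate 1 of both groups (6.46 in Zeb2-KO and 5.20 in WT, against 3.10 to 3.38 in the other arrays).

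No respiratory chain gene passed the test, whereas 45 of the 61 lay higher in the arrays labelled Zeb2-KO. The median difference was 0.27 on the log2 scale, and single genes ran from -0.71 (Ndufs5) to 1.32 (Ndufb8). When each array's interquartile range of log2 values was fitted alongside the groups (the spread covariate), the median turned to -0.17 (20 of 61 higher). With quantile normalization it was 0.057 (32 of 61 higher), and without Zeb2-KO replicate 2 it was 0.022 (32 of 61 higher). The interquartile range was higher in the arrays labelled Zeb2-KO at each replicate number (1.83 to 2.40, against 1.59 to 2.03 in WT). The spread covariate can thus take up part of a group difference. Over all 14610 tested probe sets the median was -0.09 and 44.6% lay higher. Of the 61 genes, however, 57 lay at or above the median level of all probe sets, and probe sets at or above that level had a median of 0.18, with 63.5% higher, against 73.8% of the respiratory chain genes. These shares are not matched for level, since mean log2 intensities per array were 8.04 to 8.99 for the 61 genes and 7.63 to 8.12 for those probe sets. In bulk samples fewer cells of a type and less RNA per cell cannot be told apart. The counts of blood cell markers and cell cycle genes given above moved between the same arrays, and their part in the difference was not tested.

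The threshold was an adjusted p of 0.05 in limma, a linear model with moderated variances, adjusted over all tested probe sets. It was passed by 0 of 61 genes, where 0.0137% of all probe sets passed. At an unadjusted p under 0.05 lay 3 of 61 genes (4.92%), namely Ndufb8, Cox7b and Uqcrc2, all higher, against 7.02% of all probe sets (5.69% higher and 1.33% lower). The groups did not overlap in 6 of 61 genes (9.84%), again all higher, against 13.2% of all probe sets (6.9% higher and 6.26% lower). The difference exceeded the pooled SD within groups in 26.2% of the genes and in 43.9% of all probe sets. Counted over both directions, each of these shares was smaller among respiratory chain genes than among all probe sets, and the share that lay higher without overlap (9.84%) was close to the 10.4% of the probe sets at or above the median level. The median SD within groups of the 61 genes was 0.49, against 0.41 over probe sets at or above the median level and 0.35 over all. The labels call the samples biological replicates, so the spread holds that between mice or marrow samples together with that between arrays. The 2 cannot be told apart, and 3 arrays per group limit the precision.

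**Figure D1:**
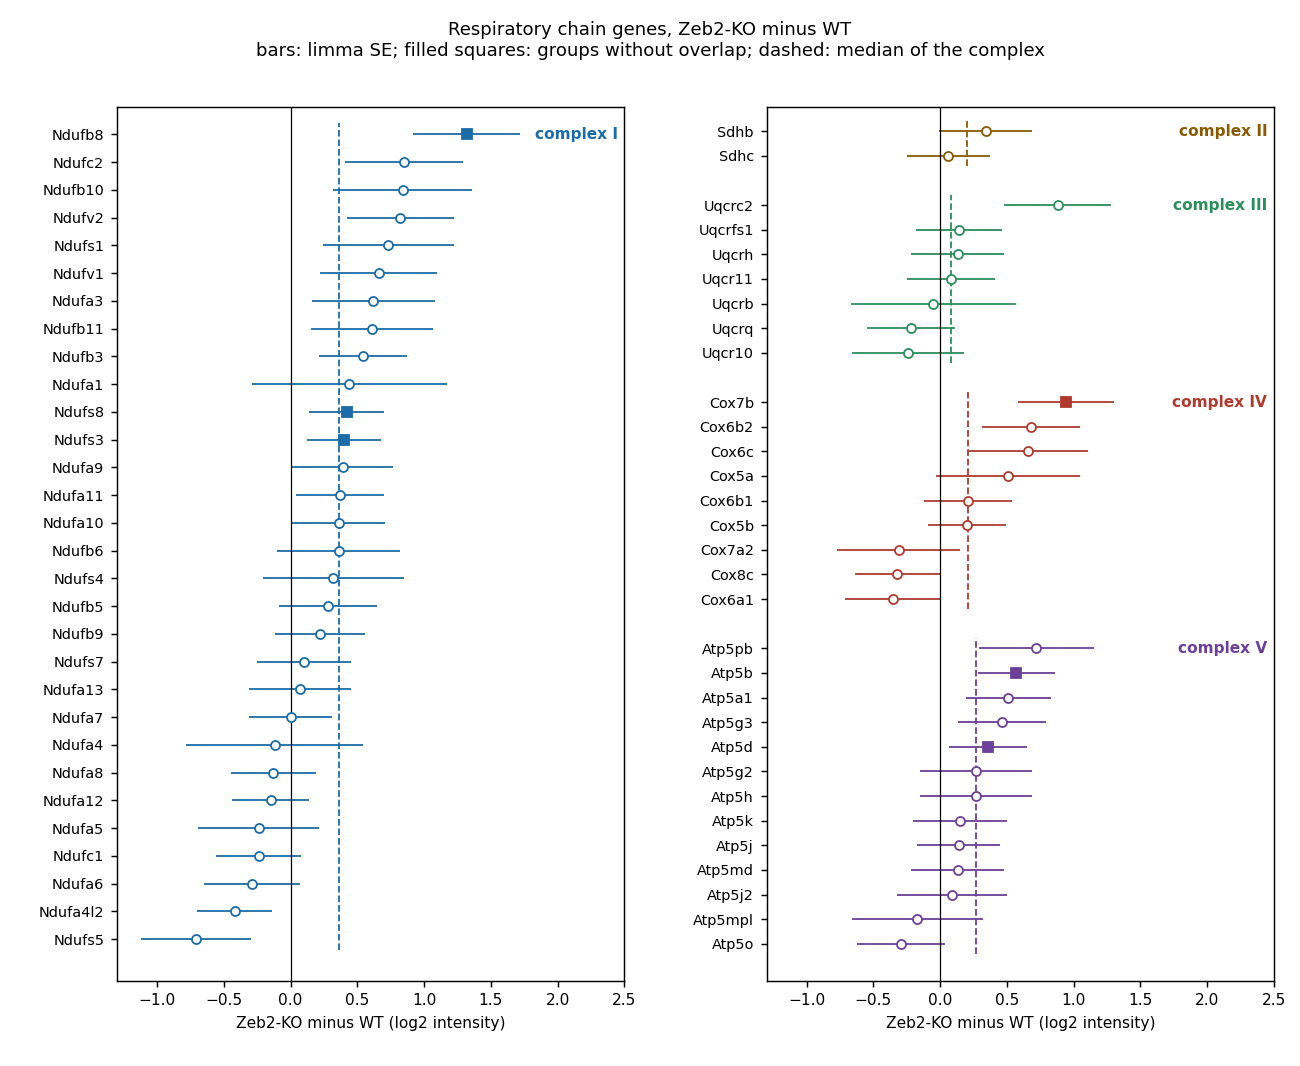
Difference of each of the 61 respiratory chain genes, Zeb2-KO minus WT, in log2 intensity, with complex I on the left and complexes II to V on the right. Points are limma estimates with SE bars, filled squares mark the 6 genes whose groups did not overlap, and dashed lines are the medians of the complexes as deposited, of which all but that of complex IV turn below 0 with the spread covariate and those of complexes II and III also with quantile normalization. Ndufb8 is the highest at 1.32 and Ndufs5 the lowest at -0.71.

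The promoters of 4 genes are shown, those with the largest and lowest differences and 2 whose groups did not overlap. Ndufb8 had the largest difference, Cox7b the largest of complex IV, Atp5b is the catalytic subunit of the ATP synthase with groups that did not overlap, and Ndufs5 had the lowest difference. Each window runs from 250 bases before to 50 after the RefSeq start on GRCm38.p6, 5′ to 3′ on the gene's strand. Capitals mark matches to the motif letters AAGATGG (known for the factor YY1), GCATGCG (NRF1), CCGGAAG (ETS factors and GABP) and CACCTG (the E-box of ZEB proteins), searched on both strands.
Ndufb8, chr19:44555393-44555692, minus strand: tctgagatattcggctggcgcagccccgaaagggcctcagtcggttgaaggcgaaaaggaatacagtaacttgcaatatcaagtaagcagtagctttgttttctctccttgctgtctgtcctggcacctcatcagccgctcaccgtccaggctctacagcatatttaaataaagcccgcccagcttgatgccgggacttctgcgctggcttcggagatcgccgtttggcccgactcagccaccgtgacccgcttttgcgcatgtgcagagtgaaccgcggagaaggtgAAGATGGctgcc
Cox7b, chrX:106015450-106015749, plus strand: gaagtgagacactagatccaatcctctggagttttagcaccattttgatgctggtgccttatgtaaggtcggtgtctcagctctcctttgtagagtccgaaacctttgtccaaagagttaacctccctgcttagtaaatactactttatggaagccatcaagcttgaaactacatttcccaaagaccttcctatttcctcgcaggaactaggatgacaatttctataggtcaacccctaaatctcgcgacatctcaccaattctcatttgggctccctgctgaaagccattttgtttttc
Atp5b, chr10:128083057-128083356, plus strand: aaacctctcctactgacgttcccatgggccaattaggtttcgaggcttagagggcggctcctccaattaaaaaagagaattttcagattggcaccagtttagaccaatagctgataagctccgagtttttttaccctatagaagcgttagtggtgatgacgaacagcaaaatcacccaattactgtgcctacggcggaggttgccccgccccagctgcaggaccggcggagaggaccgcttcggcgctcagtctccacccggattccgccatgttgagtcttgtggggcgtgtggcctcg
Ndufs5, chr4:123718137-123718436, minus strand: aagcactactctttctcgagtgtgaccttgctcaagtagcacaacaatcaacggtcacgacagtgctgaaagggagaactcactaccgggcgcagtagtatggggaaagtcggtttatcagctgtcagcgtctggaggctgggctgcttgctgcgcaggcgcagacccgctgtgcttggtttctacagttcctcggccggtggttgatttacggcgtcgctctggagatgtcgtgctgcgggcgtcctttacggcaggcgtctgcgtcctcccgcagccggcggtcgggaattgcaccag
Only Ndufb8 of these 4 windows held a match, to AAGATGG, and the other 3 held none of the letters searched.

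Complex I had a median difference of 0.36, with 22 of 30 genes higher, and the direction turned with the spread covariate (-0.18, 9 of 30 higher). Its hydrophilic arm carries the flavin and the iron-sulfur clusters that take electrons from NADH, and 6 of the 7 nuclear-encoded core subunits of that arm were measured. All 6 lay higher as deposited (5 of 6 with quantile normalization and 4 of 6 with the spread covariate), and none passed. Ndufv1, which binds NADH and flavin, stood at 7.55, 7.98 and 7.21 in the arrays labelled Zeb2-KO, against 7.92, 6.75 and 6.07 in WT. These values overlapped, since WT replicate 1 lay among the arrays labelled Zeb2-KO, and the difference was 0.66 (SE 0.44, limma adjusted p = 0.673). Ndufv2, its iron-sulfur partner, stood at 8.23, 8.89 and 8.30 in Zeb2-KO against 7.03, 8.53 and 7.40 in WT, with WT replicate 2 inside the Zeb2-KO range and a difference of 0.82 (SE 0.40). Ndufs1, the largest iron-sulfur subunit, stood at 6.94, 8.00 and 7.49 in Zeb2-KO against 6.36, 7.95 and 5.95 in WT, a difference of 0.73 (SE 0.49) with overlap through WT replicate 2.

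Of the subunits that lead electrons on to ubiquinone, Ndufs8 and Ndufs3 differed by less but varied less. Ndufs8, which holds iron-sulfur clusters, stood at 7.19, 7.40 and 6.85 in the arrays labelled Zeb2-KO, against 6.74, 6.76 and 6.67 in WT. All 3 arrays labelled Zeb2-KO lay above all WT arrays, by 0.42 on average (SE 0.28, limma adjusted p = 0.673). Ndufs3 stood at 8.49, 8.44 and 8.72 in Zeb2-KO against 7.94, 8.11 and 8.41 in WT, again without overlap, with a difference of 0.40 (SE 0.28). Both had an SD within groups of 0.20, the smallest of the 61 genes. Ndufs7, the subunit next to the ubiquinone site, had a difference of 0.10 (SE 0.35), well within its spread.

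Among the accessory subunits, the Ndufb genes, whose products line the distal membrane arm, lay higher in 7 of 7 measured cases as deposited, 6 of 7 with quantile normalization and 4 of 7 with the spread covariate. Ndufb8 stood at 8.29, 8.88 and 8.31 in the arrays labelled Zeb2-KO, against 6.23, 7.59 and 7.69 in WT. The groups did not overlap, and the gap between them was smaller than the gap between WT replicate 1 and the other WT arrays. The difference was 1.32 (SE 0.40), or 2.5-fold, the largest of all 61 genes, and did not pass (limma adjusted p = 0.606). Ndufb10 stood at 6.93, 8.85 and 8.40 in Zeb2-KO against 6.30, 7.84 and 7.54 in WT, a difference of 0.84 (SE 0.52) with overlap. Ndufb11, an X-linked subunit, lay at 0.61, Ndufb3 at 0.54, Ndufb6 at 0.36, Ndufb5 at 0.28 and Ndufb9 at 0.22. Ndufc2, another subunit of the membrane arm, stood at 9.71, 10.49 and 9.82 in Zeb2-KO against 8.24, 10.10 and 9.13 in WT, a difference of 0.85 (SE 0.44).

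The Ndufa genes divided, with 7 of 13 higher and a median of 0.00, and with the spread covariate none of the 13 lay higher. Ndufa3 lay at 0.62, Ndufa1, an X-linked subunit of the membrane arm, at 0.44, Ndufa9 at 0.39, Ndufa11 at 0.37 and Ndufa10 at 0.36. Ndufa13 lay at 0.07 and Ndufa7 at 0.00. Lower values were found for Ndufa4l2 (-0.42), a hypoxia-induced paralogue of Ndufa4 with a mean log2 intensity of 5.68, Ndufa6 (-0.29), Ndufa5 (-0.24), Ndufa12 (-0.15) and Ndufa8 (-0.13). Ndufa4, named for complex I and since assigned to complex IV, lay at -0.12. The lowest difference of all was that of Ndufs5, a small subunit on the intermembrane side. It stood at 5.96, 7.36 and 6.56 in the arrays labelled Zeb2-KO, against 6.77, 7.91 and 7.32 in WT, overlapping through Zeb2-KO replicate 2, with a difference of -0.71 (SE 0.41, limma adjusted p = 0.673). A probe set shared by Ndufs5 and its pseudogene Ndufs5-ps, which is no member, lay at 0.18. Ndufc1 (-0.24) and Ndufs4 (0.32) differed by less than their SD within groups.

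Of complex II, which belongs to the citric acid cycle as well, Sdhb and Sdhc were measured. Sdhb, the iron-sulfur subunit, stood at 7.65, 8.70 and 7.89 in the arrays labelled Zeb2-KO, against 8.19, 7.55 and 7.45 in WT, a difference of 0.34 (SE 0.35). Sdhc, a membrane anchor, lay at 0.06 (SE 0.31). Both groups overlapped in both genes, and the median of 0.20 turned to -0.038 with quantile normalization and -0.10 with the spread covariate.

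Complex III was the complex with the lowest median, 0.08, with 4 of 7 genes higher as deposited, and 1 of 7 with quantile normalization (median -0.084) or with the spread covariate (-0.26). Uqcrc2, a core protein of the complex, had the largest difference and stood at 8.10, 9.05 and 8.13 in the arrays labelled Zeb2-KO, against 6.86, 8.15 and 7.65 in WT. WT replicate 2 alone reached into the Zeb2-KO range, and the difference of 0.88 (SE 0.40), or 1.84-fold, did not pass (limma adjusted p = 0.673). Uqcrfs1, the Rieske iron-sulfur protein, lay at 0.14 (SE 0.32), Uqcrh, the hinge protein, at 0.13 and Uqcr11 at 0.08. Uqcr10 (-0.24), Uqcrq (-0.22) and Uqcrb (-0.05), all small subunits, lay lower.

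The median of complex IV was 0.21, 6 of its 9 genes lay higher, and the median was 0.0081 without WT replicate 3. It was -0.052 with only the 6 genes whose chosen probe set lies at their own locus. That leaves out Cox6c, and also Cox5b and Cox7b, whose other probe sets lie at their own locus and gave 0.24 and 0.85. Cox7b, an X-linked small subunit, stood at 9.60, 10.59 and 9.97 in the arrays labelled Zeb2-KO, against 8.55, 9.47 and 9.31 in WT. The groups did not overlap, with a difference of 0.94 (SE 0.36), or 1.92-fold (limma adjusted p = 0.662). Its other probe set, the one at its own locus, gave 8.12, 8.96 and 8.64 in Zeb2-KO against 7.39, 8.44 and 7.35 in WT. There the difference was 0.85 in the same direction, with overlap through WT replicate 2. Cox6b2, known as the testis form of Cox6b, lay at 0.68 (SE 0.37), Cox6c at 0.66 (SE 0.45), Cox5a at 0.51 (SE 0.54), Cox6b1 at 0.21 and Cox5b at 0.20. On the lower side were Cox6a1 (-0.35), the form of Cox6a found outside heart and muscle, Cox8c (-0.32), a testis form with a mean log2 intensity of 5.76, and Cox7a2 (-0.31). Heart and muscle forms of these subunits were not analysed here.

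Complex V had a median of 0.27, with 11 of 13 genes higher as deposited, 7 of 13 with quantile normalization (median 0.032) and 4 of 13 with the spread covariate (-0.14). The F1 head makes the ATP. Atp5b, the catalytic beta subunit, stood at 10.18, 10.61 and 10.22 in the arrays labelled Zeb2-KO, against 9.54, 10.01 and 9.76 in WT. Every array labelled Zeb2-KO lay above every WT array, by 0.57 on average (SE 0.29), or 1.48-fold (limma adjusted p = 0.673). Atp5a1, the alpha subunit, stood at 9.88, 9.91 and 9.65 in Zeb2-KO against 9.35, 9.76 and 8.80 in WT, with overlap through WT replicate 2 and a difference of 0.51 (SE 0.32). Atp5d, the delta subunit of the central stalk, stood at 7.72, 7.75 and 7.53 in Zeb2-KO against 6.92, 7.49 and 7.50 in WT, without overlap by a narrow margin, with a difference of 0.36 (SE 0.29). These 3 F1 genes lay higher under quantile normalization, median centring, the spread covariate and array weights and without any single array, with medians of 0.28 to 0.68, and none passed.

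Of the membrane part and peripheral stalk of complex V, Atp5pb, the stalk's b subunit, stood between 7.74 and 9.27 in the arrays labelled Zeb2-KO, against 7.46 to 8.46 in WT, a difference of 0.72 (SE 0.43). Its WT range reached into that of the arrays labelled Zeb2-KO through replicates 2 and 3. Atp5g3 and Atp5g2, which encode the c subunit of the rotating ring, lay at 0.46 (SE 0.33) and 0.27 (SE 0.42). Atp5h, the d subunit of the stalk, lay at 0.27, and Atp5k (0.15), Atp5j (0.14), Atp5md (0.13) and Atp5j2 (0.09) differed by less than their spread. Atp5o, the protein that joins stalk and head, lay lower at -0.29 (SE 0.33), and so did Atp5mpl at -0.17 (SE 0.49).

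**Figure D2:**
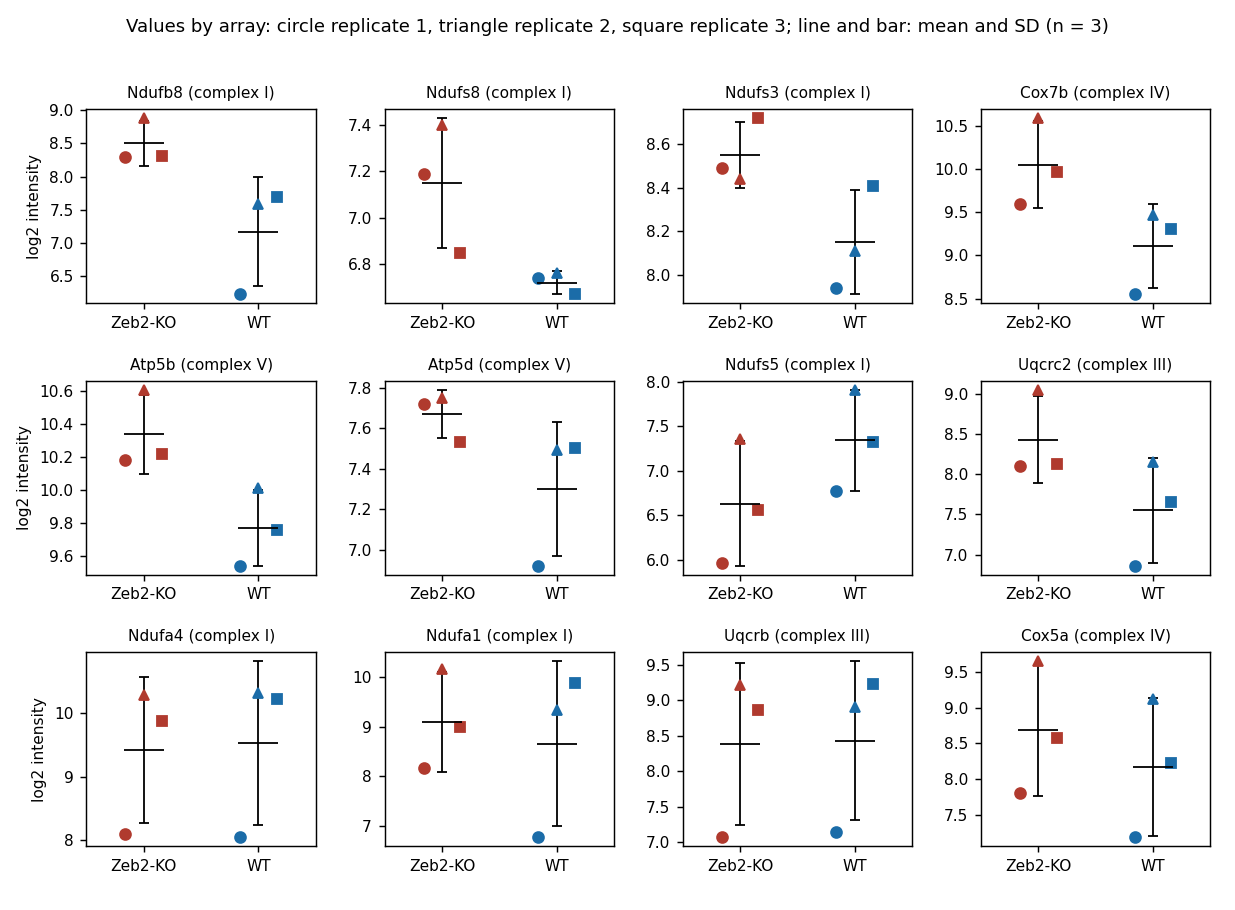
Log2 intensity on each array, Zeb2-KO left and WT right, for the 6 genes whose groups did not overlap, the gene with the lowest difference (Ndufs5), Uqcrc2, and the 4 genes with the largest SD within groups (Ndufa4, Ndufa1, Uqcrb and Cox5a). Symbols mark replicates 1 to 3, and lines and bars are the mean and SD of 3 arrays, so that the low values of replicate 1 in both groups can be seen in the bottom row.

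A large part of the variation ran between replicates of a group. Zeb2-KO replicate 2 was the highest of the 6 arrays in 42 of the 61 genes, and WT replicate 1 and WT replicate 3 were the lowest in 24 and 19. The mean log2 intensity over the 61 genes was 8.14, 8.99 and 8.51 in the arrays labelled Zeb2-KO, against 8.04, 8.64 and 8.21 in WT, so the groups overlapped and both were highest in replicate 2. In 36 of 61 genes (59.0%) replicate 2 was the highest array of its group in both groups, against 30.1% of the probe sets at or above the median level. In 22 of 61 genes (36.1%) replicate 1 was the lowest of both groups, against 28.6%. The interquartile range of log2 values, a measure of the spread over the whole array, was 1.83, 2.40 and 2.11 in the arrays labelled Zeb2-KO, against 1.59, 2.03 and 1.77 in WT, and it too was highest in replicate 2 of each group. The part of the array spread in the levels of the genes was not tested beyond the fit with it as a covariate. That fit cannot fully separate the spread from the groups, since the spread was higher in Zeb2-KO at each replicate number.

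In the 4 genes with the largest SD within groups, replicate 1 was the lowest array of both groups. Ndufa4 stood at 8.10, 10.28 and 9.87 in the arrays labelled Zeb2-KO, against 8.04, 10.32 and 10.23 in WT, and the group means differed by -0.12 (SE 0.66). Uqcrb stood at 7.07, 9.21 and 8.86 in Zeb2-KO against 7.15, 8.91 and 9.23 in WT, with a difference of -0.05 (SE 0.62). Ndufa1 stood at 8.16, 10.16 and 8.99 in Zeb2-KO against 6.77, 9.33 and 9.88 in WT, and Cox5a at 7.81, 9.65 and 8.57 in Zeb2-KO against 7.18, 9.12 and 8.22 in WT. The arrays labelled replicate 1 are those with the raised Y-linked signal. Without both of them, which leaves 2 arrays per group, the median over the 61 genes was 0.37, with 47 higher and none past the threshold.

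**Figure D3:**
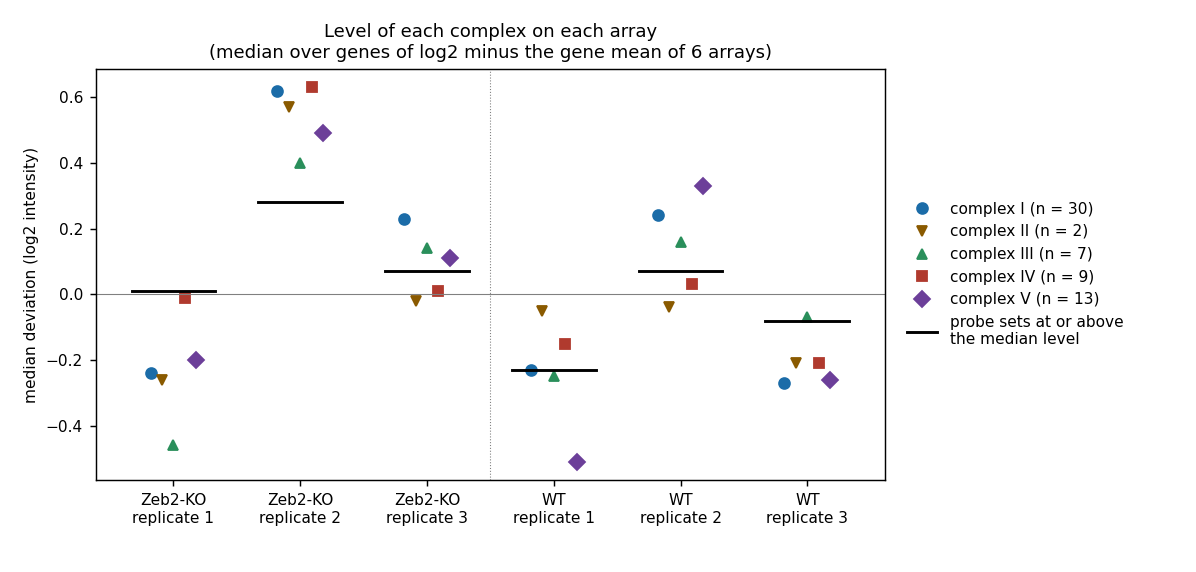
Level of each complex on each array, as the median over its genes of the log2 intensity minus the gene's mean of 6 arrays, with Zeb2-KO arrays left and WT arrays right. Black lines give the same for all 7305 probe sets at or above the median level, and all 5 complexes are highest on Zeb2-KO replicate 2.

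The complexes followed each other across the arrays. All 5 were highest on Zeb2-KO replicate 2, at median deviations of 0.62 (complex I), 0.57 (II), 0.40 (III), 0.63 (IV) and 0.49 (V), where the probe sets at or above the median level lay at 0.28. On Zeb2-KO replicate 1 complex III was the lowest at -0.46 and complex IV the highest at -0.01, and on WT replicate 1 complex V was the lowest at -0.51 and complex II the highest at -0.05. In order of their median difference the complexes ran I (0.36), V (0.27), IV (0.21), II (0.20) and III (0.08). The SD of the median deviations between arrays of a group was 0.27 to 0.39, larger than the step between any neighbours in the order. That SD holds the movement that the complexes share across arrays, so it cannot decide whether neighbours differ. Differences between complexes were not tested. The order was not kept. Complex IV was highest without Zeb2-KO replicate 3 (0.35) and lowest without WT replicate 3 (0.0081), and complex V was highest without WT replicate 2 (0.47). Complex III was the lowest in 5 of the 6 fits with 1 array left out.

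**Figure D4:**
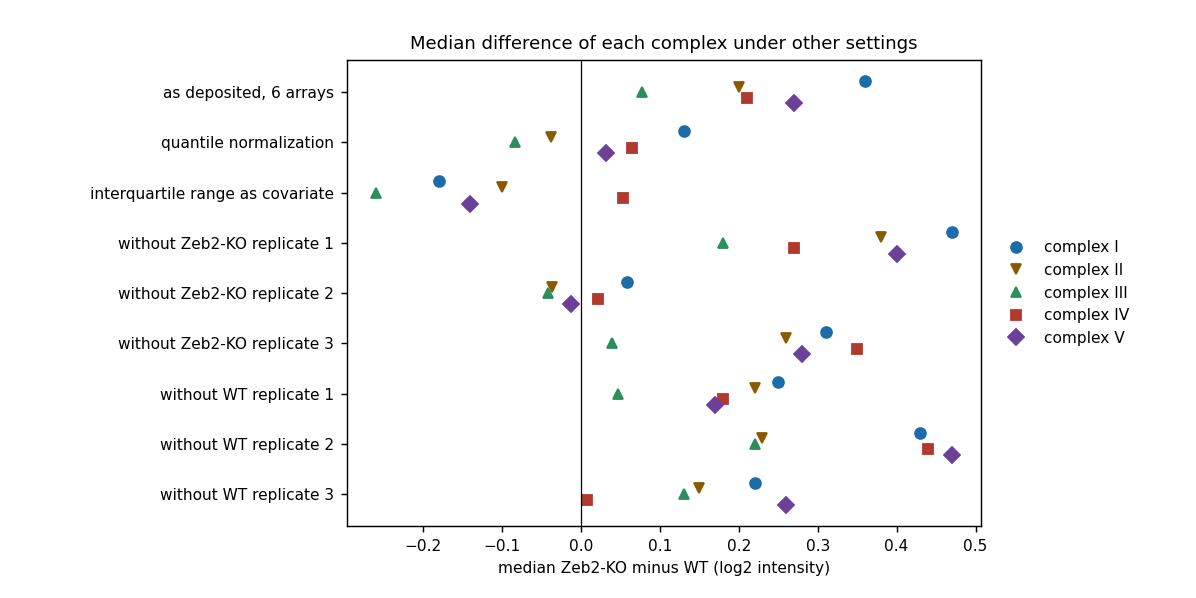
Median difference of each complex, Zeb2-KO minus WT in log2 intensity, as deposited and under other settings. With the spread covariate complexes I, II, III and V lie below 0, with quantile normalization complexes II and III do, and without Zeb2-KO replicate 2 all medians lie between -0.042 and 0.058.

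Several of the genes have copies in the genome, and their probe sets do not all lie at the gene. For 8 of the 61 genes the chosen probe set lies, in the order of identifiers, among probe sets of another chromosome than RefSeq gives for the gene. These are Ndufb11, Ndufc1, Uqcr11, Cox5b, Cox6c, Cox7b, Atp5md and Atp5pb, and their values are uncertain in that a near-identical copy may share the signal. Ndufb11 (0.52), Uqcr11 (0.29), Cox5b (0.24), Cox7b (0.85) and Atp5md (0.27) also have a probe set at their own locus, higher in Zeb2-KO like the chosen one. Ndufc1, Cox6c and Atp5pb have none. Atp5pb, a gene of chromosome 3, is represented by a probe set among genes of chromosome 11. For the 10 genes with several probe sets the difference kept its sign in all of them except for Uqcrb, where it ran from -0.27 to 0.00. With only the 53 genes whose chosen probe set lies on their own chromosome the median was 0.27 (38 higher). That of complex IV was -0.052 over the 6 genes left, without the own-locus probe sets of Cox5b (0.24) and Cox7b (0.85).

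Other genes of mitochondrial energy metabolism were described in the same fit, and none passed the threshold in either direction as deposited. Of the subunits and carriers outside the naming rule, 5 of 6 lay higher (median 0.45, 4 of 6 with quantile normalization or the spread covariate). The values were those of Ndufab1, the acyl carrier subunit of complex I (0.80), Cycs, cytochrome c (0.76, SE 0.65, with an SD of 1.59 in WT), Atpif1, the inhibitor of the ATP synthase (0.46), and Cyc1, cytochrome c1 of complex III (0.44). Cox4i1, the main form of subunit 4 of complex IV, lay at 0.01 and the other form Cox4i2 at -0.19. Whether the probe sets of list genes lie at their own locus was not looked at. Subunits encoded by mitochondrial DNA were not analysed here. The 27 measured assembly factors divided, with 14 higher and a median of 0.03, which turned to -0.12 with the spread covariate and -0.005 with quantile normalization. Those with the smallest p were all higher, namely Uqcc2, which assists complex III (7.51 ± 0.07 in the arrays labelled Zeb2-KO, against 6.28 ± 0.46 in WT, a difference of 1.24, limma adjusted p = 0.561), Sdhaf4 of complex II (1.18) and Ndufaf1 of complex I (0.99).

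Enzymes of the tricarboxylic acid cycle and pyruvate oxidation lay higher in 12 of 13 cases, at a median of 0.54 (9 of 13 with quantile normalization and 8 of 13 with the spread covariate). Fumarase, Fh1, lay at 0.81, and the isocitrate dehydrogenases Idh3a and Idh2 at 0.86 and 0.89. Of the genes of glycolysis and pyruvate handling 13 of 17 lay higher, with a median of 0.25 (9 of 17 with the spread covariate). Tpi1, triose phosphate isomerase, lay at 1.09, Pfkp, a phosphofructokinase, at 0.80 and Slc16a1, a lactate carrier, at 0.95. Regulators of mitochondrial biogenesis and genes of mitochondrial DNA upkeep lay higher in 11 of 17 cases, at a median of 0.12, in 8 of 17 with quantile normalization (median -0.016) and in 9 of the 12 that a filter on dim probe sets keeps (median 0.59). Polg2, the accessory subunit of the mitochondrial DNA polymerase, lay at 0.94, Gabpa, an ETS factor known to act on respiratory genes, at 0.80 and the deacetylase Sirt3 at -0.79. Nrf1, another known activator of these genes, lay at -0.10 and Ppargc1a, the coactivator PGC-1alpha, at -0.25. On the higher side, Yy1 lay at 0.93 (SE 0.52), Sirt1 at 0.79, Tfam at 0.69 and Tfb2m at 0.62. At an unadjusted p under 0.05 lay 4 assembly factors, 3 genes of the tricarboxylic acid cycle, 3 of glycolysis and 3 of biogenesis, all higher but Sirt3. These are 14.8% of the 27 assembly factors, 23.1% of 13, 17.6% of 17 and 17.6% of 17 genes, where 7.02% of all probe sets and 10.3% of those at or above the median level lay under that p.

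Promoter windows were found in the RefSeq table for 50 of the 61 genes. The NRF1 letters GCATGCG stood in 8 of 50 windows (16%), against 3.64% of 27025 promoters of the same length, and the ETS letters CCGGAAG in 11 (22%) against 9.12%. The YY1 letters AAGATGG stood in 8 windows (16%) against 6.48%, 6 of them in complex I, among them Ndufb8, Ndufs4, Ndufs7 and Ndufa9. The ZEB letters CACCTG stood in 11 windows (22%), close to the 20.0% of all promoters. Among the genes without overlap between groups, Ndufs3 and Atp5d held them, and Ndufb8, Ndufs8, Cox7b and Atp5b did not. Genes with small or negative differences held them too, such as Ndufa13 (0.07) and Ndufc1 (-0.24). The ETS letters end in AAG, with which the YY1 letters begin, so a match to each can share bases, but no member's window held both. A match describes the sequence only.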

How the data were processed

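Arrays were grouped by the genotypes and titles in the labels. The deposited table gives 1 intensity per probe set and array, made by the authors with RMA per the submitters' processing notes (version not given in the sources used here), on a linear scale as judged from its range, so log2 was taken. RMA scales arrays to each other, but the spread of values still differed between them, and whether a later step rescaled them is not known. The main results are on the deposited scale. Of 20220 probe sets, 5610 below the first annotated identifier were left out. The other 14610 were fitted in limma 3.58.1 (R 4.3.3; lmFit and eBayes), and p-values were adjusted by Benjamini-Hochberg over all of them, with a threshold of 0.05. The planned fit was tested on simulated data with independent noise and differences larger than that of any respiratory chain gene. That test does not cover differences of the size found here. Probe sets were named from the platform annotation, and genes were placed on chromosomes with RefSeq tables of GRCm38.p6. Alternatives included quantile normalization, median centring, each array's interquartile range in the fit, array weights, a filter on dim probe sets and leaving out each array.

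The genes and lists were chosen with earlier results of these data known. Named by rule were the 4 largest and 4 smallest differences of complexes I, III, IV and V, both genes of complex II, known catalytic subunits and tissue forms, genes with several probe sets, Zeb2, and the 3 genes with the smallest p of each list. Other genes, some of them from the lists, were named after their values were seen, and every member is accounted for. Of 85 RefSeq genes that the naming rule would take, 24 were not analysed here. Array values carry no read depth.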

Additional observations from a re-analysis of the deposited data

How the results depend on the processing

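No respiratory chain gene passed the adjusted threshold in limma under any of the alternatives, and at an unadjusted p under 0.05 lay between 2 and 18 of the 61. That share counts both directions. It exceeded the share of all probe sets with the spread covariate (11.5% against 5.13%) and with a replicate block (24.6% against 17.8%). It did so too without WT replicate 2 (18.0% against 11.4%) and without both arrays with raised Y-linked signal (11.5% against 8.28%). It was smaller in the other settings, array weights included (29.5% against 32.8%). With the spread covariate the named respiratory chain genes with the lowest adjusted p in limma all lay lower, Cox5a and Atp5h among them. Quantile normalization turned the medians of complex II (-0.038), complex III (-0.084), the assembly factors (-0.005) and the biogenesis genes (-0.016), and of single genes Atp5j2 -0.10, Atp5md -0.043, Cox5b -0.0053, Ndufs7 -0.11, Sdhc -0.18, Uqcr11 -0.069, Uqcrfs1 -0.084 and Uqcrh -0.084. The array spread as a covariate left 20 of 61 genes higher and turned the medians of all 61 genes (-0.17), complexes I (-0.18), II (-0.10), III (-0.26) and V (-0.14) and the assembly factors (-0.12). It also turned Atp5g2 -0.52, Atp5h -0.56, Atp5j2 -0.64, Atp5md -0.34, Atp5pb -0.085, Cox5a -0.66, Cox6b1 -0.11, Cox8c 0.053, Ndufa11 -0.081, Ndufb10 -0.24, Ndufb11 -0.26, Ndufs1 -0.12, Ndufs7 -0.15, Sdhc -0.34, Uqcr11 -0.19, Uqcrfs1 -0.26 and Uqcrh -0.13. Array weights, whose estimate did not converge, turned complex III (-0.011) and Atp5md -0.30, Atp5mpl 0.53, Ndufa5 0.14, Sdhc -0.013, Uqcr10 0.48, Uqcr11 -0.15 and Uqcrh -0.011, and carried Zeb2 and 8 of the named genes of other lists past the threshold, but no respiratory chain gene, where 978 of 14610 probe sets (6.69%) passed. Without both arrays with raised Y-linked signal, chosen after seeing the data, 21 genes (34.4%) had groups without overlap, where 50% of all probe sets did, and Atp5mpl 0.40, Ndufa5 0.46, Uqcr10 0.47, Uqcr11 -0.23 and Uqcrq 0.10 turned. With only the genes whose chosen probe set lies at their own locus, a subset also taken after seeing the data, complex IV turned to -0.052. Cox5b and Cox7b were dropped there, though their other probe sets, at their own locus, lay at 0.24 and 0.85. Leaving out each array in turn, groups without overlap were found for 8 to 17 genes (13.1% to 27.9%, against 16.6% to 45.0% of all probe sets), and the medians ran over -0.036 to 0.38 (complex II), -0.042 to 0.22 (complex III), -0.013 to 0.47 (complex V), -0.026 to 0.36 (the biogenesis genes), -0.0032 to 0.38 (the assembly factors). The single genes that turned ran over -0.51 to 0.38 (Atp5mpl), -0.86 to 0.54 (Ndufa4), -0.62 to 0.34 (Ndufa5), -0.53 to 0.014 (Ndufa6), -0.60 to 0.18 (Uqcr10), -0.69 to 0.60 (Uqcrb), -0.47 to 0.035 (Uqcrq), -0.14 to 0.67 (Atp5g2), -0.10 to 0.67 (Atp5h), -0.20 to 0.48 (Atp5j2), -0.16 to 0.30 (Atp5md), -0.18 to 0.30 (Ndufs7), -0.13 to 0.21 (Sdhc), -0.027 to 0.41 (Uqcrfs1), -0.12 to 0.38 (Uqcrh), -0.24 to 0.25 (Uqcr11), -0.75 to 0.044 (Cox7a2), -0.036 to 0.44 (Cox6b1). Without Zeb2-KO replicate 2 the median over all 61 genes was 0.022. The labels number the replicates 1 to 3 in both groups, and the planned fit did not take the numbers as pairs. Deviations of arrays of the same number correlated at 0.36, 0.414 and 0.047, and those of unlike numbers at -0.375 to 0.03. Whether arrays of the same number share a source or handling was not tested. With a replicate block the medians were the same (0.27 over all 61 genes), 0 genes passed and 15 lay at an unadjusted p under 0.05, as did 17.8% of all probe sets. The deviations of each array correlated best with those of the same number in the other group, for replicate 3 only by 0.047 against 0.03. Deviations within a group cancel out, so the correlations of unlike numbers are partly set by those of like numbers. A filter on dim probe sets gave the biogenesis genes a median of 0.59. The causes of these changes were not tested, and with 3 arrays a group the SE of a respiratory chain gene was 0.28 or more.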
